A study of Mus musculus with 6 samples.

Results

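The 77 genes described here encode chemokines, interleukins, ligands of the tumour necrosis factor (TNF) superfamily and the receptors of these families, measured in mouse hearts after doxorubicin. They were taken by gene symbol from the 14956 genes listed for the series (symbols starting with Ccl, Ccr, Cxcl, Cxcr, Cx3c, Ackr, Il, Tnfsf or Tnfrsf and a family number). The rule itself used no measured value, but it was set with earlier results of these data known. Genes summing to under 0.502 FPKM over the 6 hearts are not listed, so a gene such as Il13 is a member only through its value in 1 heart. Poly(A) RNA was sequenced from the hearts of 3 Het mice, heterozygous for a disrupted Otub1 (Otub1 +/-), and of 3 wild-type (WT) mice (Otub1 +/+). All 6 mice, the WT mice included, had been given doxorubicin 6 times within 2 weeks, and no untreated heart is part of the comparison. Doxorubicin is an anthracycline cancer drug that injures the heart, and OTUB1 is a deubiquitinase, an enzyme that removes ubiquitin from other proteins. The sources used here give no strain, sex or age, and not how the allele was disrupted.

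Chemokines are small secreted proteins that direct leukocyte migration through G protein-coupled receptors, while atypical receptors bind and remove them without that signal. Interleukins act mostly through receptor chains coupled to JAK kinases and STAT transcription factors, and members of the interleukin-1 family act through the adaptor MyD88. TNF ligands cluster their receptors, which recruit TRAF proteins and activate NF-kappaB or, for receptors with a death domain, caspases. In the heart these proteins are made by endothelial cells, fibroblasts, macrophages and cardiomyocytes, and several are induced by interferons.

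Levels are in FPKM, a unit that divides the fragments of a gene by its length and by the library total, so levels of different genes can be set side by side. Otub1 was lower in every Het heart, with 4.83 to 6.65 FPKM in Het hearts, against 14.2 to 15.4 FPKM in WT hearts (exact two-sided permutation p = 0.1, the smallest that 3 hearts against 3 allow). Its log2 fold change was −1.19, and limma's adjusted p of 0.376 over all genes missed the threshold. Cardiomyocyte markers were abundant everywhere, with 6 genes summing to 6840 to 12322 FPKM in Het hearts and 13782 to 16003 FPKM in WT hearts. The Het hearts differed from each other. Mitochondrial transcripts made up 65.0% of summed FPKM in Het 1, against 51.5% to 56.1% in the other 5 hearts. Het 3 held lung epithelial transcripts, 864 FPKM over 10 markers, against 0.479 to 1.15 FPKM in the other 5 hearts. Hepatocyte markers summed to 1.85, 42.3 and 0.924 FPKM in Het hearts 1 to 3, against 120.2 to 172 FPKM in WT hearts. The absolute read depth is unknown, so errors given are the spread between hearts. Limma's errors and p-values rest on that spread only, with the variance of each gene moderated over all genes tested. The test behind the authors' deposited p-values is not named in the sources used here. In whole hearts, fewer cells of a type and less RNA per cell cannot be told apart.

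Most of these genes were weakly expressed. Only 42 of the 77 had a mean of at least 1 FPKM over the 6 hearts and were tested, and the other 35 had means of 0.101 to 0.982 FPKM. Cxcl12, the ligand of CXCR4 that retains haematopoietic cells, was highest with a mean of 21.6 FPKM, followed by Il10rb, a chain shared by receptors of the interleukin-10 family, with 21.3 FPKM. Il10rb shares exons on the same strand with the gene Gm21970, so their reads cannot be fully separated. After Cxcl12 and Il10rb came the atypical receptor Ackr3 (14.9 FPKM), the TNF receptor Tnfrsf1a (14.3 FPKM) and the interleukin-11 receptor Il11ra1 (13.0 FPKM). Classical inflammatory cytokines were low, with Il1b at a mean of 0.337 FPKM and the neutrophil chemokine Cxcl1 at 0.549 FPKM. Summed over all 77 genes the level was 199, 244 and 245 FPKM in Het hearts 1 to 3, against 240, 245 and 227 FPKM in WT 1, 2 and 3. The sums of the groups overlapped.

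No member passed the test between genotypes. In limma's test on log2(FPKM + 1) over 11096 genes, 0 of 42 members had an adjusted p under 0.05, where 0.018% of all genes tested passed (0% higher and 0.018% lower in Het). At an unadjusted p under 0.05, 3 of 42 members lay higher in Het (7.14%, against 0.802% of all genes) and 1 lay lower (2.38%, against 3.08%). The 3 were Tnfsf10, Cxcl9 and Ccl12, and the 1 was Tnfrsf12a. Cxcl9 and Ccl12, with WT means of 0.845 and 0.245 FPKM, reached the filter of 1 FPKM only through their Het values. Cxcl15, at 0 in WT, did so through Het 3 alone. The filter thus admits low genes where 1 group is high, so the shares higher in Het are no result about the members. The values of the genotypes did not overlap for 2 members higher in Het, Tnfsf10 and Cxcl9 (4.76%, against 1.83% of all genes). They did not overlap for 2 lower in Het, Ccrl2 and Il11ra1 (4.76%, against 15.6%). The authors' deposited table lists an adjusted p under 0.05 for 4 of the 77 members as higher in Het (5.19%, against 0.776% of all genes listed), namely Tnfsf10, Cxcl9, Ccl12 and Cxcl15. It lists 0 as lower, against 0.241% of all genes listed. The median log2 fold change of the 42 tested members was −0.08, against −0.18 for all genes tested. With median-ratio scaling those medians were 0.11 and −0.001.

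**Figure D1:**
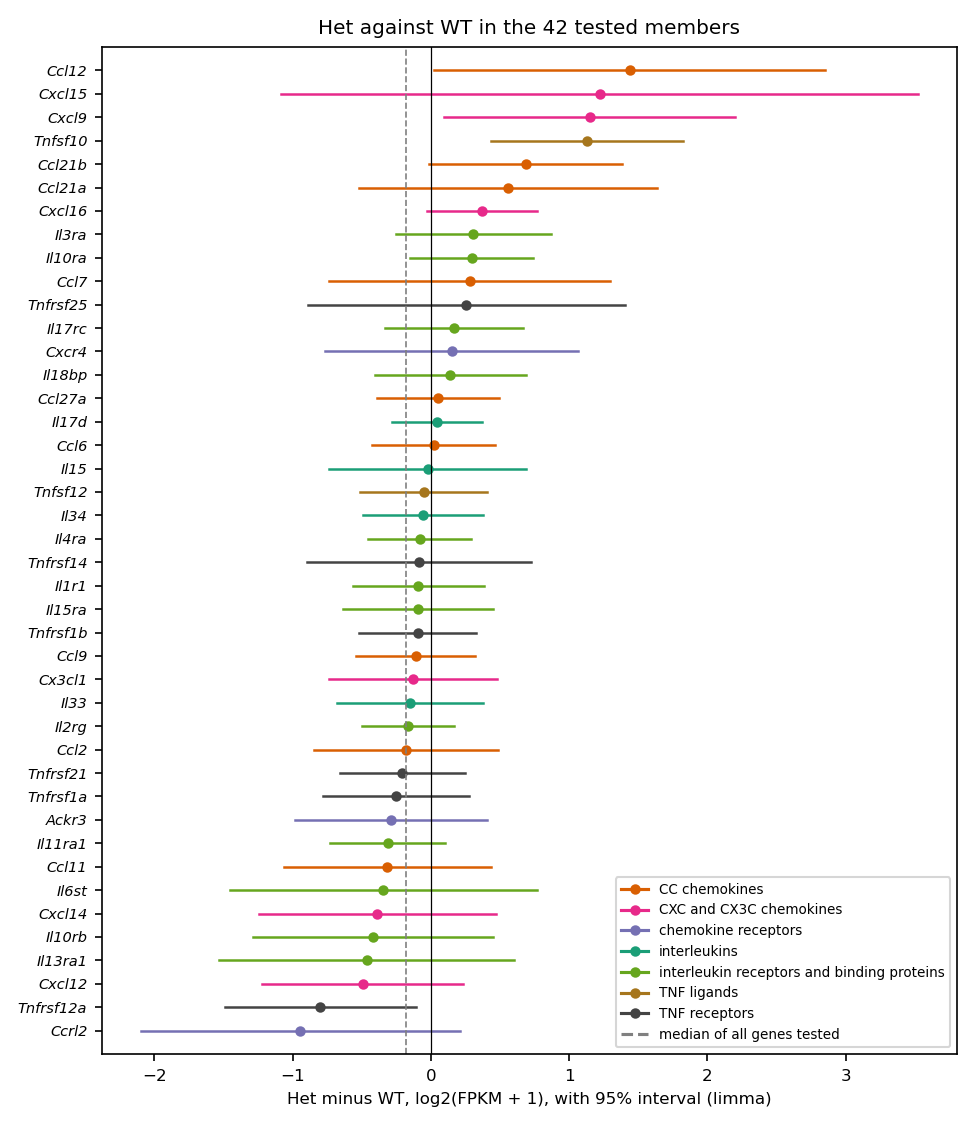
Difference between Het and WT hearts on the log2(FPKM + 1) scale (x axis) for each of the 42 tested members (y axis, sorted), with points for limma's estimate, lines for the 95% interval and colours for the role of the gene. Most intervals include 0; those of Ccl12, Cxcl9 and Tnfsf10 lie above it and that of Tnfrsf12a lies below it, before adjustment for 11096 genes. The dashed line marks the median of all genes tested, −0.18.

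Tnfsf10 separated the genotypes most clearly among the members. It encodes TRAIL, a TNF ligand that can trigger death receptors and is induced by interferons. Tnfsf10 (chromosome 3, 27317028 to 27342427, plus strand, GRCm38) stood at 3.19, 6.96 and 2.98 FPKM in Het hearts 1 to 3, against 1.03, 1.66 and 1.35 FPKM in WT 1, 2 and 3. Every Het heart lay above every WT heart, Het 2 furthest. The means were 4.38 ± 2.24 FPKM across Het hearts, against 1.35 ± 0.317 FPKM in WT (SD, n = 3 each), a 3.25-fold ratio. The log2 fold change was 1.13 (SE 0.29, 95% interval 0.44 to 1.82, limma unadjusted p = 0.00666, adjusted p = 0.753). The unadjusted p stayed under 0.05 in all 13 alternative settings, at 0.00223 to 0.0278, while limma's adjusted p lay between 0.161 and 0.937 over them. The authors' deposited table gives Tnfsf10 an adjusted p of 4.5e-04.

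The receptors that bind TRAIL in the mouse were low, and none was higher in every Het heart. Tnfrsf10b, the death receptor for TRAIL, stood at 0.531, 0.487 and 0.374 FPKM in the Het hearts, against 0.339, 0.474 and 0.427 FPKM in WT, with overlapping groups. The decoy receptors Tnfrsf22 and Tnfrsf23, both on chromosome 7, had means of 0.650 ± 0.0993 and 0.392 ± 0.181 FPKM across Het hearts, against 0.543 ± 0.137 and 0.615 ± 0.0615 FPKM in WT (SD, n = 3 each). Tnfrsf23 was the one member under the filter whose groups did not overlap, lower in Het. Over all 77 members 3 were lower without overlap (3.9%, where 13.9% of all genes listed were). For Tnfrsf23 limma gave an unadjusted p of 0.141 when all 14956 genes were fitted. The death domain receptors Tnfrsf1a and Tnfrsf21 were far more abundant. Tnfrsf1a, the main TNF receptor, had 13.1 ± 2.91 FPKM across Het hearts, against 15.5 ± 0.691 FPKM in WT, and Tnfrsf21 had 3.48 ± 0.832 and 4.12 ± 0.489 FPKM in Het and WT (SD, n = 3 each). The 95% interval of the log2 difference was −0.78 to 0.28 for Tnfrsf1a and −0.66 to 0.24 for Tnfrsf21.

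A ligand and receptor pair of the TNF family with both members tested was Tnfsf12 and Tnfrsf12a. Tnfsf12 encodes TWEAK, and Tnfrsf12a encodes its receptor Fn14, which is induced in injured tissue. Tnfrsf12a (chromosome 17, 23675445 to 23677468) stood at 4.29, 4.38 and 8.28 FPKM in Het hearts 1 to 3, against 11.3, 11.8 and 7.83 FPKM in WT 1, 2 and 3. Het 1 and Het 2 lay below every WT heart, while Het 3 lay above WT 3, so the groups overlapped. The log2 fold change was −0.80 (SE 0.29, limma unadjusted p = 0.0293, adjusted p = 0.753). The unadjusted limma p was under 0.05 in 7 of 13 alternatives for Tnfrsf12a. The ligand Tnfsf12 stood at 6.94, 6.06 and 4.44 FPKM in the Het hearts, against 5.60, 6.60 and 5.77 FPKM in WT, a log2 difference of −0.05 with a 95% interval of −0.51 to 0.41. Tnfsf12 shares exons on the same strand with the read-through gene Tnfsfm13, as does Tnfsf13, which encodes APRIL, so their reads cannot be fully separated. Tnfsf13 had 0.642 ± 0.109 FPKM across Het hearts, against 0.613 ± 0.271 FPKM in WT (SD, n = 3 each).

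**Figure D2:**
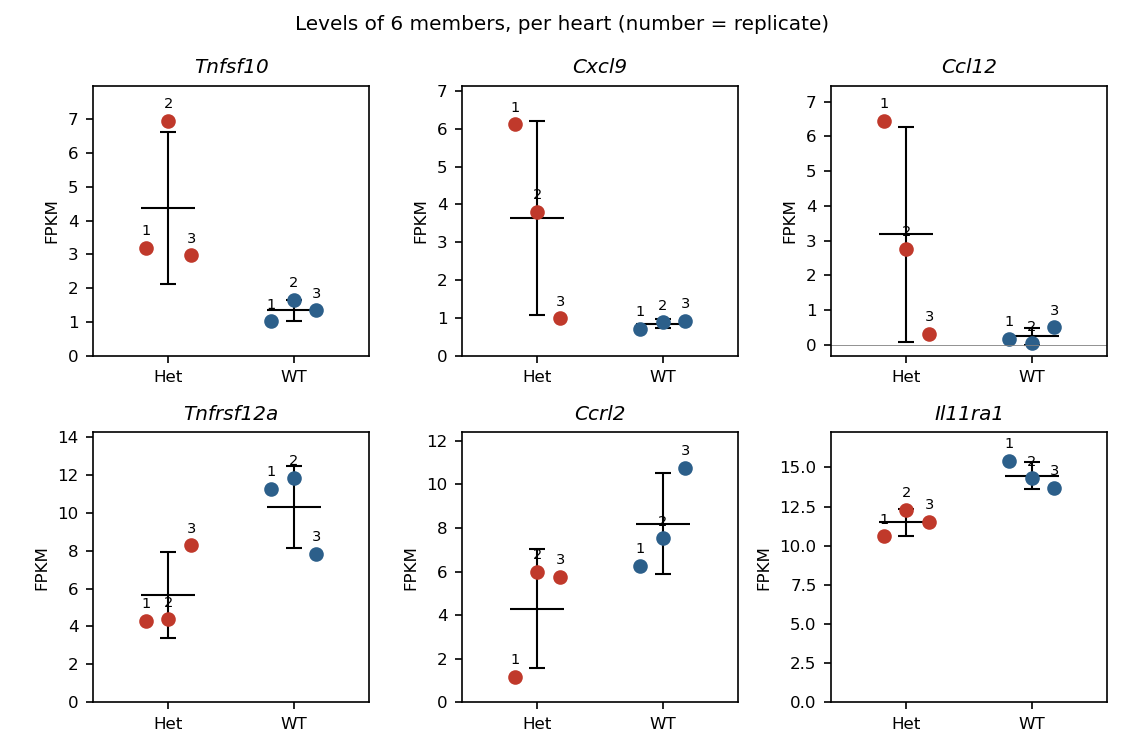
FPKM (y axis, from 0 except for Ccl12, whose axis starts slightly below) of 6 members in each heart, with Het left of WT, replicate numbers beside the points and a black bar with whiskers for the mean ± SD (n = 3 each). Tnfsf10 lies higher in all 3 Het hearts, at 2.98 to 6.96 FPKM; Cxcl9 and Ccl12 are high in Het 1 and Het 2 and near the WT hearts in Het 3; Ccrl2 and Il11ra1 lie lower in all 3 Het hearts.

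The interferon-induced chemokines were high in Het 1 and Het 2 and near the WT level in Het 3. Cxcl9 (chromosome 5, 92321347 to 92328079, minus strand), which attracts activated T cells through CXCR3, stood at 6.12, 3.81 and 0.996 FPKM in Het hearts 1 to 3, against 0.712, 0.892 and 0.931 FPKM in WT. The groups did not overlap, but Het 3 lay only just above WT 3. The means were 3.64 ± 2.57 FPKM across Het hearts, against 0.845 ± 0.117 FPKM in WT (SD, n = 3 each). The log2 fold change was 1.15 (SE 0.44, limma unadjusted p = 0.0366, adjusted p = 0.753). Its neighbour Cxcl10, a second CXCR3 ligand, was low throughout, at 0.427, 0.559 and 0.0276 FPKM in the Het hearts, against 0.0387, 0.173 and 0.119 FPKM in WT. Cxcl10 too was highest in Het 1 and Het 2, and its Het 3 value was the lowest of the 6. Its exons overlap those of Art3 on the opposite strand, and the sources used here do not say whether the counting used strand, so reads of such pairs cannot be told apart. CXCR3 itself was not analysed here.

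Ccl12 showed the same order of the Het hearts. It encodes a mouse monocyte chemoattractant that acts through CCR2. Ccl12 (chromosome 11, 82101845 to 82103400, plus strand) stood at 6.45, 2.77 and 0.318 FPKM in Het hearts 1 to 3, against 0.175, 0.0508 and 0.509 FPKM in WT. Het 3 lay below WT 3, so the groups overlapped. The ratio of the Het mean to the WT mean was 13.0. The log2 fold change was 1.44 (SE 0.59, limma unadjusted p = 0.0473, adjusted p = 0.753). Without Het 3 the unadjusted p in limma's test was 8.3e-04 for Ccl12 and 2.7e-04 for Cxcl9, and the adjusted p was 0.114 and 0.0647, still short of the threshold. For Ccl12 the log2 fold change depended on the settings, at 2.76 with a pseudocount of 0.1 FPKM, 2.11 without Het 3, 0.89 with library weights and 0.86 without Het 1, and that of Cxcl9, 1.15 over all hearts, was 0.75 without Het 1. The unadjusted limma p was under 0.05 in 6 of 13 alternatives for each. Without Het 1 it was 0.136 for Ccl12 and 0.1 for Cxcl9, and without Het 2 it was 0.108 and 0.0965 in limma's test. Over all 13 alternatives limma's adjusted p ranged from 0.114 to 0.937 for Ccl12 and from 0.0647 to 0.937 for Cxcl9. The authors' deposited table gives adjusted p values of 0.0489 for Ccl12 and 0.0411 for Cxcl9.

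Interferon signalling genes were also high in Het 1 and Het 2. Stat2, a transcription factor activated by interferon receptors, stood at 42.8, 20.8 and 3.67 FPKM in Het hearts 1 to 3, against 3.14 to 4.62 FPKM in WT. Irf7, a transcription factor that interferons induce, stood at 72.7, 40.0 and 2.93 FPKM in the Het hearts, against 2.40 to 3.58 FPKM in WT. Macrophage markers summed over 10 genes to 153, 164 and 255 FPKM in Het hearts 1 to 3, against 133 to 150.4 FPKM in WT, but 0 of the 10 lay above the WT range in every Het heart. The sum in Het 3 held 168 FPKM of 1 gene, the lysozyme Lyz2, which also lung epithelium makes, and which had 44.6 and 49.3 FPKM in Het 1 and Het 2, against 55.25, 57.7 and 58.9 FPKM in WT. The complement gene C1qa was instead high in the other 2 Het hearts, as were C1qb, C1qc and Fcgr1. C1qa stood at 39.0, 38.8 and 26.4 FPKM in Het hearts 1 to 3, against 25.2, 29.3 and 23.3 FPKM in WT. The markers Csf1r, Adgre1 and Mrc1 were highest in Het 3, at 7.12, 2.90 and 4.58 FPKM. Their WT ranges were 3.73 to 4.13, 1.38 to 1.44 and 3.84 to 4.19 FPKM. Adgre1 was lowest of all hearts in Het 1, at 0.901 FPKM. The macrophage markers thus had no common order over the Het hearts. T cell and natural killer markers were near 0, with 3 of 11 listed and sums of 0.882 to 1.79 FPKM across Het hearts, against 0.333 to 0.892 FPKM in WT. Among them Trac, a T cell receptor chain, lay above the WT range in all Het hearts, while Gzma and Trbc2 overlapped between the genotypes. Of all genes listed 2.37% lay higher in Het without overlap. Trac stood at 0.911, 0.519 and 0.478 FPKM in the Het hearts, against 0.333, 0.358 and 0.450 FPKM in WT. Erythroid markers were high in Het 1 and Het 2, with 5705, 2403 and 680.1 FPKM across Het hearts, against 1006 to 1395 FPKM in WT over 5 genes. The part of any of these in the chemokine values was not tested.

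The starts of Tnfsf10, Cxcl9 and Ccl12 are shown because these members had the smallest unadjusted p among those higher in Het, and that of Cxcl10 because it neighbours Cxcl9. The sequences are RefSeq promoters (GRCm38.p6), each 300 bases from 250 before to 50 after the RefSeq start and read 5′ to 3′ on the gene's strand. For Tnfsf10 that start lies inside the gene, after the GENCODE start of 27317028 given above. They cover chr5:92348840-92349139 (minus) for Cxcl10, chr5:92328030-92328329 (minus) for Cxcl9, chr11:82101595-82101894 (plus) for Ccl12 and chr3:27316827-27317126 (plus) for Tnfsf10. Capitals mark matches to any of 3 motifs, searched on both strands. These were the interferon-stimulated response element core (GAAA, any 2 bases, GAAA), the STAT-binding GAS core TTCNNNGAA and the kappaB motif bound by NF-kappaB.
Cxcl10: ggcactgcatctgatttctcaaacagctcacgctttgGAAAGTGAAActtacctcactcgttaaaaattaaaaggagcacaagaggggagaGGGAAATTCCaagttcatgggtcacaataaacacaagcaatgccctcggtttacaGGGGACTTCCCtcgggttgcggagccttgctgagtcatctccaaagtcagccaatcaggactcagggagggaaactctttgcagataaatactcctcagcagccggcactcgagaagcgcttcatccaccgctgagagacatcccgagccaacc
Cxcl9: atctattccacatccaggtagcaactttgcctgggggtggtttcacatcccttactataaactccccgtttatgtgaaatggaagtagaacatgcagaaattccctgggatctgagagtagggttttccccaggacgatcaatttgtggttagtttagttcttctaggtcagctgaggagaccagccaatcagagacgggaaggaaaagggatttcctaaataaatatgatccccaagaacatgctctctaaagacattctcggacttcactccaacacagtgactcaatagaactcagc
Ccl12: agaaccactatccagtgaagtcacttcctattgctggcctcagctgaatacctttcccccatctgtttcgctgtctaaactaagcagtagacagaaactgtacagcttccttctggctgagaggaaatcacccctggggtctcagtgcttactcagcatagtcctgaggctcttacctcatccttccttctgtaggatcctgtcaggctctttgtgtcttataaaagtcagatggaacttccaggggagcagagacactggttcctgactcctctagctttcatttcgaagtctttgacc
Tnfsf10: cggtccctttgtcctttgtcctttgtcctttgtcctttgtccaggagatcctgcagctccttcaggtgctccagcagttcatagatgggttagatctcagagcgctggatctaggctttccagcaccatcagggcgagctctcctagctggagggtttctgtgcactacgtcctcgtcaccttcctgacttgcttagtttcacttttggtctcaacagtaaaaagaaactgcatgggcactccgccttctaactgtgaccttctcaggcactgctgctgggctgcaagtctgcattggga
Cxcl10 held 1 response element match, starting 213 bases before the start, and 3 kappaB matches, starting 159, 104 and 103 bases before it, of which the last 2 overlap. The windows of Cxcl9, Ccl12 and Tnfsf10 held no match to these letters, which says nothing about sites elsewhere or of other spelling. Promoters could be matched for 59 of the 77 members, with 75 windows in all. The response element core was in 5 of these 75 windows (6.67%), against 3.44% of all 32851 promoters. The GAS core was in 9 (12%, against 8.3%) and the kappaB motif in 12 (16%, against 8.46%). The windows with a kappaB match included those of Ccl9, Ccr1, Ccrl2, Cxcl1, Cxcl10 and Il1r1, among others. A match is a description of the letters and not a site in use.

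The other CC chemokines did not move as a block, even among close neighbours. On chromosome 11 the monocyte chemoattractants Ccl2 and Ccl7, the eosinophil chemoattractant Ccl11, then Ccl12 and Ccl8 follow one another within the same cluster. Ccl7 stood at 3.76, 1.85 and 0.591 FPKM in Het hearts 1 to 3, against 1.50, 1.97 and 0.622 FPKM in WT. Ccl2 stood at 2.02, 1.25 and 0.416 FPKM in the Het hearts, against 1.64, 1.43 and 1.18 FPKM in WT. In both genes Het 1 was highest and Het 3 lowest of the 6 hearts, and the groups overlapped. Ccl11 went another way, at 0.577, 2.71 and 0.877 FPKM in the Het hearts, against 1.67 to 1.84 FPKM in WT. Ccl8 was listed at 0.663, 0.399 and 0 FPKM in the Het hearts, against 0.227, 0 and 0 FPKM in WT. Further along the chromosome Ccl9 and Ccl6, mouse chemokines made by myeloid cells, were steadier. Ccl6 had 6.31 ± 1.12 FPKM across Het hearts, against 6.18 ± 0.782 FPKM in WT, and Ccl9 had 2.66 ± 0.759 and 2.89 ± 0.0836 FPKM in Het and WT (SD, n = 3 each).

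**Figure D3:**
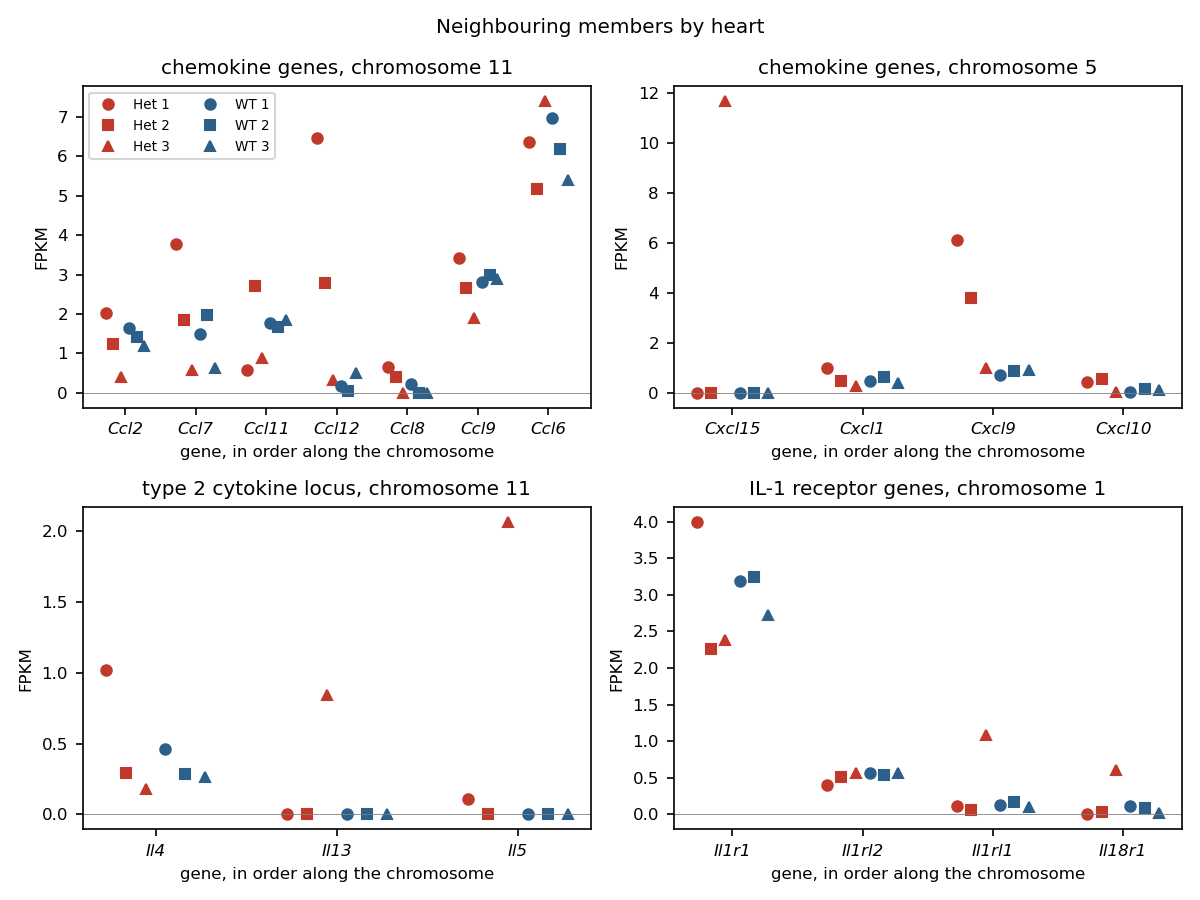
FPKM (y axis) of members that lie on the same chromosome segment, in order along the chromosome (x axis), with 1 symbol per heart (red Het, blue WT; circle, square and triangle for replicates 1, 2 and 3). Ccl12 and Cxcl9 are high in Het 1 and Het 2, while Cxcl15, Il5, Il13, Il1rl1 and Il18r1 are high in Het 3, and their neighbours Cxcl1, Il4, Il1rl2 and Il1r1 are not highest there by such a margin.

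The lymphatic chemokine CCL21, the CCR7 ligand that guides dendritic cells and T cells, is encoded by near-identical mouse copies that share reads, so single copies are uncertain and their sum is the safer value. Ccl21a, Ccl21b and Ccl21d together stood at 28.9, 11.8 and 9.01 FPKM in Het hearts 1 to 3, against 10.1, 11.3 and 5.86 FPKM in WT. Het 1 stood apart and the other 5 hearts overlapped. Of the single copies Ccl21b came nearest to the threshold, with a log2 fold change of 0.69 (SE 0.29, limma unadjusted p = 0.0540, adjusted p = 0.753). CCR7 was not analysed here.

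The constitutive CXC and CX3C chemokines lay lower in Het 1 and close to WT in Het 2 and Het 3. Cxcl12 stood at 11.1, 23.1 and 20.4 FPKM in Het hearts 1 to 3, against 22.7, 27.5 and 24.6 FPKM in WT. Het 1 lay far below the other 5 hearts, and Het 2 lay above WT 1. Its log2 difference was −0.49 with a 95% interval of −1.22 to 0.23. Cxcl14, expressed by fibroblasts and epithelia, had 1.50, 4.47 and 5.33 FPKM across Het hearts, against 5.27, 5.25 and 3.94 FPKM in WT. Cx3cl1 (fractalkine), tethered to endothelial cells, had 1.47 ± 0.748 FPKM in Het and 1.61 ± 0.320 FPKM in WT (SD, n = 3 each), with its lowest value, 0.642 FPKM, in Het 1. Cxcl16, the membrane-bound ligand of CXCR6, differed from these. It stood at 2.94, 2.29 and 3.05 FPKM in the Het hearts, against 1.68, 2.47 and 1.63 FPKM in WT, and only WT 2 overlapped the Het hearts. Its log2 fold change was 0.37 (SE 0.17, limma unadjusted p = 0.0653, adjusted p = 0.753), and its exons overlap Zmynd15 on the opposite strand.

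The receptors of CXCL12 did not follow their ligand as a pair. The scavenger Ackr3 stood at 8.30, 15.9 and 16.7 FPKM in Het hearts 1 to 3, against 17.1, 14.8 and 16.7 FPKM in WT. Cxcr4, the signalling receptor on leukocytes and endothelium, stood at 0.608, 1.07 and 3.39 FPKM in the Het hearts, against 0.776, 1.70 and 1.22 FPKM in WT. It was highest in Het 3, where lung markers stood out, and lowest in Het 1. Ccrl2, a receptor that binds the chemoattractant chemerin without signalling, lay below the WT range in all Het hearts, with 1.17, 5.99 and 5.76 FPKM in the Het hearts, against 6.27, 7.52 and 10.8 FPKM in WT. Het 2 lay just under WT 1, and Het 1 far under all others. The log2 fold change was −0.94 (SE 0.48, limma unadjusted p = 0.0931, adjusted p = 0.753). The leukocyte chemokine receptors Ccr1, Ccr2, Ccr10 and Cxcr6 all had means under 0.5 FPKM, where the fold changes of this scale say little. Ccr2, the receptor for CCL2, CCL7 and CCL12, stood at 0.0653, 0.125 and 0.521 FPKM in the Het hearts, against 0.204, 0.0725 and 0.105 FPKM in WT, so its highest value was in Het 3, where those ligands were low.

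A group of members was high in Het 3 and near 0 elsewhere. By the rule of at least 1 FPKM in 1 heart and at least 4 times the next heart, these were Cxcl15, Il5 and Il1rl1, 3 of 77 members (3.9%), against 0.889% of all genes listed. Cxcl15 (lungkine), made by lung epithelium in the mouse, had 11.7 FPKM in Het 3, and each of the other 5 hearts was listed at 0. The authors' deposited table gives Cxcl15 an adjusted p of 1.9e-07 as higher in Het, while limma's adjusted p here was 0.753, and the signal came from 1 heart. Il5, the growth factor of eosinophils, stood at 2.07 FPKM in Het 3, where Het 1 had 0.108 FPKM and it was listed at 0 in Het 2 and all WT hearts. Il1rl1 encodes ST2, the receptor for interleukin-33 on type 2 lymphocytes and mast cells. It stood at 0.114, 0.0596 and 1.08 FPKM in Het hearts 1 to 3, against 0.124, 0.172 and 0.103 FPKM in WT.

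Further members, picked out after their values were seen, had the same distribution. Il13, a type 2 cytokine, had 0.844 FPKM in Het 3, against 0 in the other 5 hearts. Cxcl17, a mucosal chemokine, had 0.605 FPKM in Het 3, where Het 1 had 0.002 FPKM and the rest were at 0. Il18r1, a chain of the interleukin-18 receptor, had 0.612 FPKM in Het 3, against 0 to 0.116 FPKM elsewhere. Cxcr6, the receptor for CXCL16, had 0.615 FPKM in Het 3, against 0 to 0.145 FPKM elsewhere. Il4, which lies beside Il13 and Il5 on chromosome 11, was not high in Het 3. It stood at 1.02, 0.291 and 0.181 FPKM in the Het hearts, against 0.462, 0.285 and 0.267 FPKM in WT. Il1r1 and Il1rl2, beside Il1rl1 and Il18r1 on chromosome 1, had 2.39 and 0.570 FPKM in Het 3, within the range of the other hearts. Beside these values stand the lung epithelial markers of Het 3, of which all 10 were highest there. Scgb1a1 and Scgb3a2 were listed at 0 in the other 5 hearts, and B cell markers were also highest in Het 3, at 10.5 FPKM against 1.52 to 3.92 FPKM elsewhere over 2 genes. Their part in the values of Il5, Il13, Il1rl1, Il18r1, Cxcr6 and Cxcl17 was not tested. The exons of Il5 overlap the antisense gene Gm12214.

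**Figure D4:**
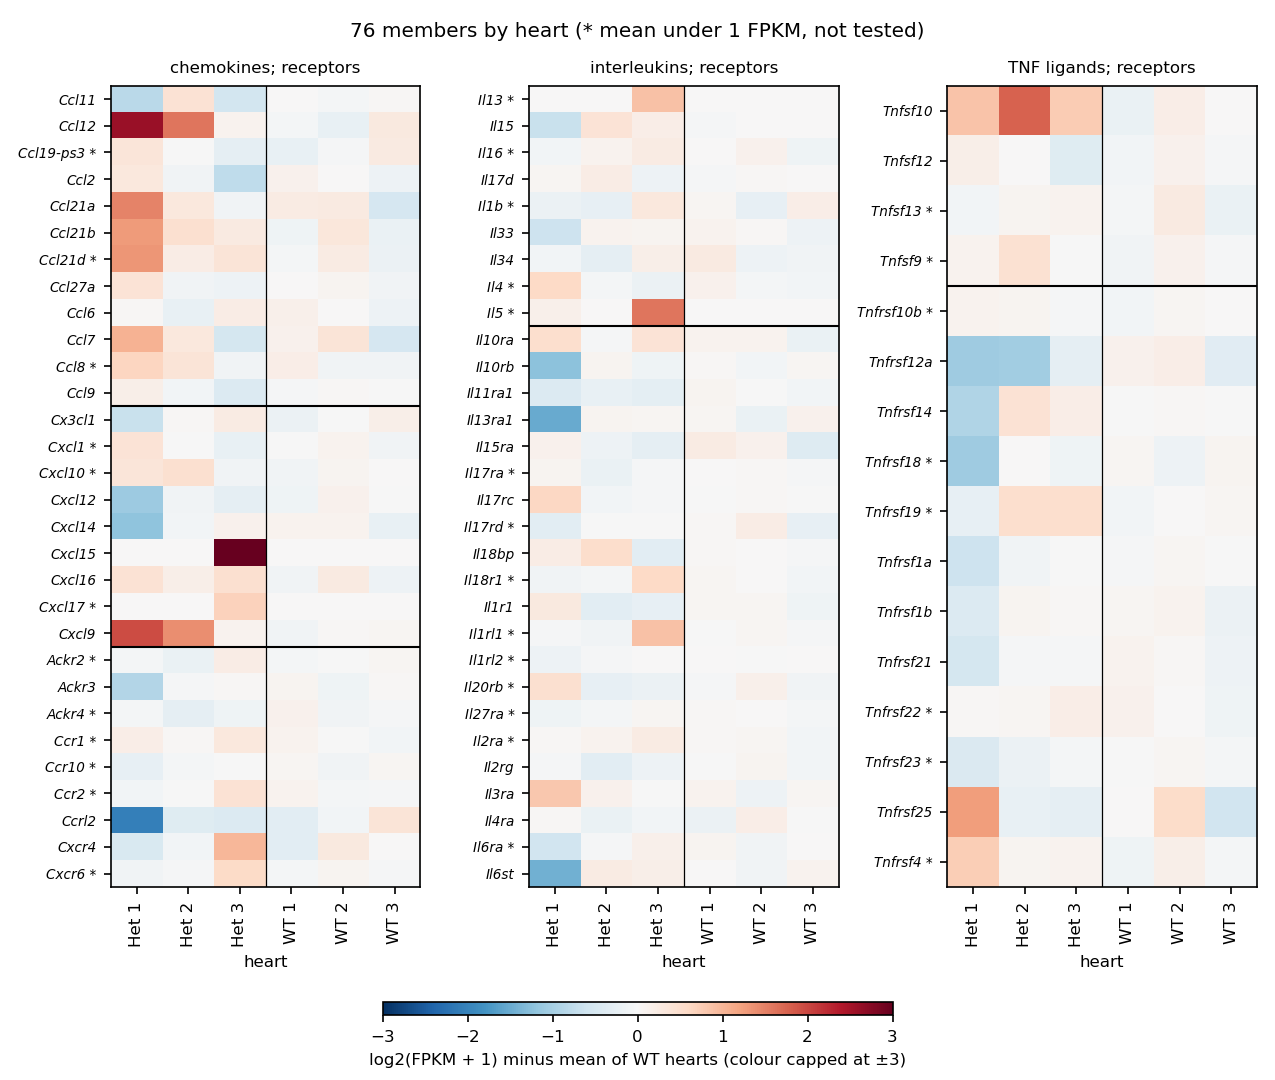
Difference of each heart (columns, Het left of WT) from the mean of the WT hearts on the log2(FPKM + 1) scale (colour, red higher, blue lower) for 76 of the 77 members (rows, grouped by role), with stars for members under 1 FPKM on average that were not tested. Red in Het 1 and Het 2 marks Ccl12 and Cxcl9, red in Het 3 marks Cxcl15, Il5 and Il1rl1, red in all 3 Het hearts marks Tnfsf10, and Het 1 has most of the blue.

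Among interleukins that the heart expresses at over 1 FPKM, none separated the genotypes. Il15, which sustains natural killer and memory T cells, was the most abundant, at 4.96, 11.6 and 9.81 FPKM in Het hearts 1 to 3, against 8.28, 8.52 and 8.60 FPKM in WT. Het 1 lay below and Het 2 and Het 3 above all WT hearts, and the log2 difference was −0.02 with a 95% interval of −0.74 to 0.69. Its receptor chain Il15ra, which presents the cytokine to neighbouring cells, had 5.99 ± 1.00 FPKM across Het hearts, against 6.54 ± 1.67 FPKM in WT (SD, n = 3 each). Il34, a ligand of the macrophage receptor CSF1R, had 1.86 ± 0.461 and 1.97 ± 0.489 FPKM in Het and WT, and Il17d had 1.60 ± 0.326 and 1.50 ± 0.0600 FPKM (SD, n = 3 each). Il33, an alarmin released by damaged stromal cells and the ligand of ST2, stood at 0.493, 1.46 and 1.41 FPKM in the Het hearts, against 1.48, 1.35 and 1.07 FPKM in WT. Its level in Het 3 was within the WT range, while that of its receptor Il1rl1 was not.

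Interleukin receptor chains and binding proteins had the largest summed level of the 7 roles in every heart, with sums over 21 genes of 59.8, 88.2 and 84.2 FPKM in Het hearts 1 to 3, against 91.6, 86.3 and 86.7 FPKM in WT. Il11ra1, through which interleukin-11 reaches fibroblasts and cardiomyocytes, was lower in every Het heart. It stood at 10.6, 12.3 and 11.5 FPKM in Het hearts 1 to 3, against 15.4, 14.3 and 13.7 FPKM in WT. The means were 11.5 ± 0.843 FPKM across Het hearts, against 14.5 ± 0.869 FPKM in WT (SD, n = 3 each), a ratio of 79.3%. The log2 fold change was −0.31 (SE 0.17) and lay 0.13 below that of the median gene (limma, unadjusted p = 0.120, adjusted p = 0.753). Its exons overlap those of Ccl27a on the opposite strand. Its partner Il6st encodes gp130, the signalling chain shared by interleukin-6, interleukin-11 and related cytokines. Il6st stood at 3.88, 14.8 and 14.2 FPKM in the Het hearts, against 12.5, 11.4 and 13.3 FPKM in WT, so that Het 2 and Het 3 lay above every WT heart and Het 1 below.

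Several other receptors were, like Il6st, far lower in Het 1 than in the other 5 hearts. Il10rb stood at 9.58, 25.2 and 21.8 FPKM in Het hearts 1 to 3, against 24.2, 22.3 and 24.6 FPKM in WT. Il13ra1, a receptor chain for interleukin-4 and interleukin-13, had 2.81, 10.5 and 10.3 FPKM in Het hearts 1 to 3, against 9.97 ± 1.24 FPKM in WT (SD, n = 3). Tnfrsf14, which binds the ligand LIGHT, stood at 0.161, 1.91 and 1.49 FPKM in the Het hearts, against 1.12, 1.21 and 1.14 FPKM in WT. The opposite order, high in Het 1 only, was seen in Il3ra, the interleukin-3 receptor chain, at 2.31, 1.05 and 0.880 FPKM in the Het hearts, against 1.04, 0.688 and 0.961 FPKM in WT. Tnfrsf25 (death receptor 3 of T cells) stood at 5.89, 1.47 and 1.39 FPKM in the Het hearts, against 1.92, 3.19 and 0.947 FPKM in WT. Il10ra, the interleukin-10 receptor chain of leukocytes, had 1.42 ± 0.457 FPKM across Het hearts, against 0.955 ± 0.236 FPKM in WT (SD, n = 3 each, limma unadjusted p = 0.158, adjusted p = 0.753). The common gamma chain Il2rg, shared by receptors for interleukins 2, 4, 7, 9, 15 and 21, had 3.01 ± 0.394 FPKM across Het hearts, against 3.48 ± 0.236 FPKM in WT (SD, n = 3 each). Il2rg shares exons on the same strand with the gene Gm20489, so their reads cannot be fully separated.

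Het 1 was thus the extreme heart for many members, in both directions. It was the lowest of the 6 for 18 of 42 tested members (42.9%), against 64.8% of all genes tested. It was the highest for 14 of 42 (33.3%), against 18.1% of all genes tested. Among these 14 were Ccl12, Cxcl9, Ccl21b, Il3ra and Il10ra, whose WT means of 0.245 to 0.955 FPKM lay under the filter. They reached 1 FPKM only through their Het values. The shares by rank, and the medians and SDs that follow, are therefore no result about the members. The tested members in Het 1 had a median log2 difference from the WT mean of 0.02, where all genes tested had −0.45. In Het 2 and Het 3 the members' medians were −0.01 and −0.03, and those of all genes −0.03 and −0.04. The SD of these log2 differences over the tested members was 0.968, 0.503 and 0.662 in Het 1, 2 and 3 and 0.133 to 0.191 in WT. Over all genes it was 0.771, 0.326 and 0.354 in Het and 0.140 to 0.148 in WT. The WT values enter the mean they are compared with, which makes their spread smaller.

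None of the listed intracellular partners of these receptors passed the same test. Of the TNF and NF-kappaB signalling list 23 of 39 genes were tested and 0 passed and 0 had an unadjusted limma p below 0.05, and the list had a median log2 fold change of −0.06, against −0.18 for all genes tested. The adaptor Traf2 had 1.91 ± 0.172 FPKM across Het hearts, against 2.46 ± 0.140 FPKM in WT, and Nfkbia, the NF-kappaB inhibitor that NF-kappaB itself induces, had 18.6 ± 1.58 and 24.4 ± 5.52 FPKM in Het and WT (SD, n = 3 each). These 2 were the list's members whose groups did not overlap, both lower in Het (2 of 23 tested, where 15.6% of all genes tested were). Of the interleukin-1 and Toll-like receptor adaptors 11 of 14 were tested and 0 passed and 0 had an unadjusted limma p below 0.05, and the list had a median of −0.06. Myd88 itself stood at 4.60, 4.84 and 4.70 FPKM in the Het hearts, against 4.25, 5.30 and 4.85 FPKM in WT. Of the JAK-STAT list 18 of 24 were tested and 0 passed and 0 had an unadjusted limma p below 0.05, and the list had a median of −0.05. Among its genes Stat3, the main STAT of gp130, stood at 5.04, 12.6 and 14.1 FPKM in the Het hearts, against 15.7, 12.8 and 13.3 FPKM in WT, low in Het 1 like Il6st.

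Of the genes that couple chemokine receptors to the cell, 10 of 16 were tested and 0 passed and 0 had an unadjusted limma p below 0.05, and the list had a median of −0.18. The G protein subunits Gnai2, Gnai3 and Gnb1 lay below all WT values in every Het heart (3 of 10 tested, where 15.6% of all genes tested did). Gnai2 had 37.8 ± 5.81 FPKM across Het hearts, against 47.3 ± 1.202 FPKM in WT (SD, n = 3 each, limma adjusted p = 0.753). Of the interferon genes listed as context 10 of 12 were tested and 0 passed, while 3 had an unadjusted limma p below 0.05, all higher in Het, where 0.802% of all genes were, and the list had a median of 0.87. The authors' deposited table lists 5 of the 10 as higher with an adjusted p under 0.05, where it lists 0.776% of all genes, namely Ifit3 (9.1e-04), Irf7 (0.00279), Isg15 (0.0332), Irgm1 (0.0337) and Gbp2 (0.0495). The interferon receptor chains did not share the order of Cxcl9 over the hearts. Ifnar1 stood at 4.73, 3.85 and 4.38 FPKM in Het hearts 1 to 3, against 4.23, 4.04 and 4.32 FPKM in WT, and Ifngr2 stood at 5.25, 28.9 and 26.5 FPKM in the Het hearts, against 26.8, 23.5 and 29.9 FPKM in WT.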

How the data were processed

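Hearts of 3 Het and 3 WT mice, 1 library each, were compared. Per the labels' protocols, libraries were made from poly(A) RNA with dUTP marking of the second strand. The submitters' processing notes give the build mm10 and, with no role for any, edgeR, DESeq2, StringTie 1.3.4d, HISAT2 2.0.4 and cutadapt 1.9. The authors deposited 1 table of FPKM per gene and library (the unit was inferred from the values and from StringTie being named). Per the file headers it also holds the authors' p-value, q-value, fold ratio, its log2 and the −log10 of the p-value for Het against WT, whose test the sources used here do not name. Genes summing to under 0.502 FPKM over the 6 libraries are not in the table.

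Testing was limited to genes averaging 1 FPKM or more, as log2(FPKM + 1) with limma 3.58.1 in R 4.3.3 (trended, robust eBayes) and Benjamini-Hochberg adjustment over all 11096, with a threshold of 0.05. This scale understates changes of low genes. Coordinates are from GENCODE M21 (all 77 members found, 76 under the same name). Of the 77 members 1 is counted but not reported here singly. Figures used matplotlib 3.10.9. Members, gene lists and tests were chosen with earlier results of these data known. Named members are, per role, the 3 most abundant and the 3 with the smallest p, those with non-overlapping groups, and those high in 1 heart, and others named were chosen after their values were seen. Alternatives were another pseudocount, filter, scaling and library weighting, the replicate number as a block and leaving out each library.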

Additional observations from a re-analysis of the deposited data

How the results depend on the processing

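No member passed the adjusted threshold in any of the 13 alternatives, and of the 27 members named by the rule and fitted 15 kept their direction in all of them. The number of members at an unadjusted p under 0.05, 4 as reported, was 2 with median-ratio scaling, 10 with library weights and 1 to 5 with a library left out (1 without WT 1, 2 without WT 3). The number of all genes called, 2 as reported, was 1 with median-ratio scaling, 22 with library weights and 1 to 38 with a library left out (1 without WT 1, WT 2 or WT 3, 8 without Het 1, 25 without Het 2 and 38 without Het 3). The replicate numbers showed no steady pairing of the hearts. Deviations of same-numbered hearts correlated at −0.20, −0.43 and 0.21 over the tested genes, and 3 values of mixed sign cannot exclude a pairing. With the replicate block 0 members and 1 gene were called and 4 members had an unadjusted p under 0.05. The members' median log2 fold change, −0.08 as reported, was 0.0205 with no filter, 0.11 with median-ratio scaling, −0.0168 with library weights and −0.0864 to 0.0084 with a library left out. That of Otub1, −1.19 as reported (limma adjusted p 0.376), was −1.07 and passed with library weights (limma adjusted p 0.00385), and was −1.26 to −1.06 with a library left out, passing without Het 1.

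The direction of some members turned, and since no member was called in any setting, called members could not be compared with the others. With median-ratio scaling the log2 fold change was 0.0816 for Ccl9, 0.18 for Il15, 0.11 for Il34 and 0.16 for Tnfsf12. Scaling without mitochondrial genes gave 0.0064 for Il15. Library weights gave −0.0105 for Ccl6, 0.0014 for Cxcl14, 0.29 for Il15, 0.0671 for Il33 and 0.18 for Il6st. With a library left out, the range was −0.26 to 0.0471 for Ccl9, −0.24 to 0.30 for Il15, −0.18 to 0.0746 for Il34, −0.17 to 0.10 for Tnfsf12, −0.0866 to 0.14 for Ccl6 and −0.64 to 0.0250 for Cxcl14. It was −0.27 to 0.0854 for Il33, −0.64 to 0.21 for Il6st, −0.46 to 0.0072 for Ackr3, −0.0403 to 0.14 for Il17d and −0.27 to 0.45 for Cxcr4. For Cxcl15 it was 0.00 to 1.83, with the value of 0 reached without Het 3, so its direction was lost but did not turn. Other members described also turned at least once, with ranges over the 13 alternatives of −0.11 to 0.68 for Ccl7, −0.43 to 0.11 for Ccl2, −0.42 to 0.32 for Tnfrsf14, −0.24 to 0.53 for Tnfrsf25, −0.74 to 0.0642 for Il13ra1, −0.29 to 0.12 for Il15ra, −0.29 to 0.11 for Il1r1, −0.23 to 0.0259 for Il2rg and −0.32 to 0.14 for Cx3cl1. The cause was not tested. Depth in reads is unknown, and the 35 members under 1 FPKM were not tested, and 0 of them came out with limma's unadjusted p below 0.05 when no filter was used.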
